A study of Mus musculus with 4 samples.

Results

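The contacts described here are read pairs that join promoters on 2 different chromosomes in MLg cells, a mouse lung fibroblast line. They come from H3K4me3 HiChIP-seq, in which fragments that lie near each other in the fixed nucleus are joined and those carrying histone H3 trimethylated at lysine 4 are precipitated. A pair was a member when its ends lay on different autosomes, each with a mapping quality of at least 30 and each within 2 kb of the transcription start site (TSS) of a protein-coding gene. Some blocks were taken as rearranged and 1 stretch as amplified, which was not tested here. Left out were pairs between 8 Mb of chromosome 13 from 95 Mb on and the block at 23 to 32 Mb of chromosome 17. Also left out were pairs between 9 Mb of chromosome 1 and the block at 39 to 48 Mb of chromosome 10. Pairs with an end in the stretch at 39 to 40 Mb of chromosome 17 were dropped too. This gave 82821 members of 55913678 valid pairs.

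The 4 libraries, 1 per condition, were Control, TGFB1, miR-9-LOF and the combination TGFB1+miR-9-LOF, and values for all 4 follow this order. In the miR-9-LOF conditions the cells received 60 nM of an antagomiR against miR-9, an oligonucleotide that blocks this microRNA, and all cells were harvested 24 h later. In the TGFB1 conditions 5 ng/ml of transforming growth factor β1 was present for the last 4 h. The labels name no antagomiR for Control and TGFB1, while the study's methods describe a negative-control antagomiR. With 1 library per condition no difference between libraries has a replicate check, and every interval and test below covers counting error only, taking read pairs as independent although they carried no molecular identifiers.

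H3K4me3 is deposited at the start sites of active and poised genes, and unmethylated CpG-rich promoters carry most of it. Each chromosome occupies a territory of its own in the interphase nucleus, and contacts between territories form mostly where their surfaces meet or where chromatin loops out of them. Gene-rich segments of different chromosomes are known to lie nearer to the nuclear interior and to shared nuclear speckles, whereas gene-poor segments lie nearer to the lamina.

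Of the observed pairs of promoter windows, 99.8% were seen once. The sequences printed here come from the few places at which apparent contacts between 2 single promoters piled up, and what they mark was not tested. The first is a stretch of 193 bases that the Gm10260 promoter window shares with an exon of Rps18, which encodes a protein of the small ribosomal subunit. The copies lie at chr13:97760296-97760488, inside the only exon and coding sequence of Gm10260, and at chr17:33952401-33952593, over a coding exon of Rps18 (GRCm38, the assembly named mm10 in the files). They were 99.5% identical and differed by 1 base, G108A, counted from 1 at the start of the stretch, with the Gm10260 base first. The part around that base, given on the + strand from chr13:97760396-97760425 and chr17:33952501-33952530, has the differing base in capitals.
Gm10260 copy: ccacctcGtcctccgtgagttctccagccc
Rps18 exon: ccacctcAtcctccgtgagttctccagccc

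The next 3 are shown because most or all ends of a repeated contact fell on 1 base there. Each is 61 bases of the + strand of GRCm38 with that base in capitals, and none holds a GATC site, where MboI cuts. The end near Mras, a small GTPase gene, is base 99437746 of chr9:99437716-99437776, at −365 relative to the TSS, with no repeat-masked base. The end near Gata5, a zinc finger transcription factor gene, is base 180335237 of chr2:180335207-180335267, at −538 and inside the gene Gata5os. The end near Mtpn, which encodes myotrophin, is base 35540620 of chr6:35540590-35540650, at −732, and 40 of its 61 bases are repeat-masked.
Mras end: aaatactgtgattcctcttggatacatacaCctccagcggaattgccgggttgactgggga
Gata5 end: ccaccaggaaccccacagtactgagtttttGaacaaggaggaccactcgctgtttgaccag
Mtpn end: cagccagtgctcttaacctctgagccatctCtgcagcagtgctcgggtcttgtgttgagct

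Promoter windows were made from 20799 of the 20807 autosomal coding genes, and windows that overlapped were merged into 18859. They covered 77.3 Mb, or 3.14% of the autosomes, and 16568 of them had at least 1 member pair. Control held 33846 member pairs of 15359978 valid pairs, TGFB1 15158 of 10864558, miR-9-LOF 18359 of 15568047 and TGFB1+miR-9-LOF 15458 of 14121095. They were 1.58%, 1.12%, 0.833% and 0.695% of the pairs kept between autosomes. The libraries differed in how many ends fell at promoters at all. Of the interchromosomal ends, 14.1% lay in promoter windows in Control, 10.7% in TGFB1, 9.0% in miR-9-LOF and 8.05% in TGFB1+miR-9-LOF. The ends of same-chromosome pairs gave nearly the same shares, at 14.1%, 11%, 8.45% and 7.63%. By contrast, 29615 flank windows of 4 kb placed 25 kb from each TSS took 6.07 to 6.35% of the interchromosomal ends in the 4 libraries.

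The question was then whether promoters met each other more or less often than their end coverages imply. The expected number was the product of the end coverages, that is the number of member pairs if each end of a promoter drew its interchromosomal partner in proportion to the ends on the other chromosomes. Promoter pairs were fewer than expected in Control, close to expected in TGFB1, and slightly more numerous in the 2 libraries with the miR-9 antagomiR. The expected number takes no account of how the precipitation selects pairs, and the part of this selection in the ratios was not tested. Observed over expected was 0.794 in Control (95% exact Poisson interval 0.785 to 0.802), 0.978 in TGFB1 (0.962 to 0.993), 1.03 in miR-9-LOF (1.02 to 1.05) and 1.08 in TGFB1+miR-9-LOF (1.06 to 1.10). The 4 intervals did not overlap. The flank windows, measured in the same way, gave 1.06, 1.09, 1.09 and 1.09, so they showed no such spread. Relative to the flanks, promoter pairs stood at 0.746 in Control, 0.894 in TGFB1, 0.952 in miR-9-LOF and 0.987 in TGFB1+miR-9-LOF, where the interval of 0.962 to 1.01 included 1.

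Between libraries, the log2 ratio of observed over expected was 0.30 higher in TGFB1 than in Control (interval 0.27 to 0.33; adjusted p = 7.49e-98, two-sided exact binomial test with Benjamini-Hochberg adjustment over 4 contrasts). It was 0.38 higher in miR-9-LOF than in Control (exact test, adjusted p = 5.47e-177) and 0.14 higher in TGFB1+miR-9-LOF than in TGFB1 (exact test, adjusted p = 1.61e-17). TGFB1+miR-9-LOF exceeded miR-9-LOF by 0.061 (exact test, adjusted p = 0.000123). With windows of 5 kb on either side this last difference was −0.012 and with the TSS of every transcript 0.012, neither past the threshold of 0.05, and it was 0.115 with 1 kb and 0.039 with coverage from all ends. The size of the other differences moved too, while each stayed past the threshold. TGFB1+miR-9-LOF exceeded TGFB1 by 0.33 with coverage from all ends, 0.23 with 1 kb, 0.091 with the TSS of every transcript and 0.038 with 5 kb. With 5 kb TGFB1 exceeded Control by 0.17 and miR-9-LOF exceeded Control by 0.22. For the flank windows the interval of all 4 contrasts included 0. These tests compare libraries, not conditions. The order of the 4 ratios was the reverse of the order of the libraries' shares of ends at promoters, so the condition and the enrichment of its library cannot be told apart. The side of 1 also depended on the window. With 1 kb on either side miR-9-LOF was at 0.920 and TGFB1+miR-9-LOF at 0.996, and TGFB1 was at 1.10 with 5 kb and at 1.03 with the TSS of every transcript.

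**Figure D1:**
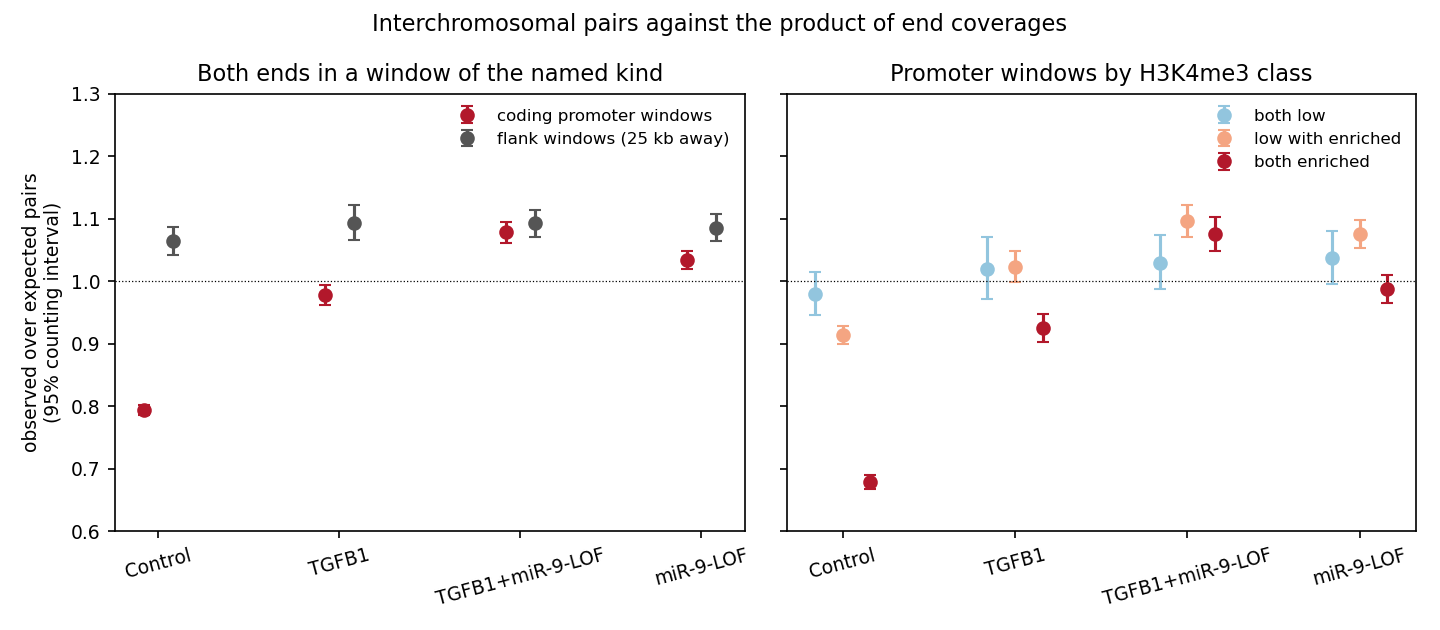
Observed over expected interchromosomal pairs (vertical axis, ratio) in each of the 4 libraries, for promoter and flank windows on the left and for promoter pairs by H3K4me3 class on the right, with 95% counting intervals as bars and a line at 1. Promoter pairs run from 0.794 in Control to 1.08 in TGFB1+miR-9-LOF while the flanks stay between 1.06 and 1.09, and the spread is widest where both promoters are enriched.

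Not every coding promoter was enriched for H3K4me3 in these cells. A window was called enriched for H3K4me3 when its same-chromosome ends per base reached 4 times the autosomal mean, which held for 5396 windows or 28.6%. The labelled cell type was checked with markers. The level was at least 4 times the mean at 5 of 10 fibroblast markers, Vim, Col1a1, Pdgfra, Pdgfrb and Twist1. It was lower at Fn1 (3.54), Tbx4 (2.87), Col1a2 (2.77), Thy1 (1.86) and Tcf21 (1.41). It was reached at 1 of 6 epithelial markers (Sftpc), and at 0 of 4 endothelial and 0 of 4 blood markers. The Sftpc window is longer than 4 kb and so merged with that of another coding TSS, and its level cannot be credited to Sftpc alone. Of the member pairs, 34949 joined 2 enriched promoters, 38624 joined an enriched and a low one, and 9248 joined 2 low ones.

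The spread between libraries was widest for pairs of enriched promoters. Their ratio was 0.679 in Control, 0.925 in TGFB1, 0.987 in miR-9-LOF and 1.07 in TGFB1+miR-9-LOF. Pairs of 2 low promoters stayed between 0.979 and 1.04 in the 4 libraries, each with an interval that included 1. Mixed pairs were at 0.913, 1.02, 1.07 and 1.10. They lay between the other classes in Control and above both in the other 3 libraries, although in TGFB1 the intervals of mixed and low pairs overlapped almost entirely, and in miR-9-LOF their interval of 1.05 to 1.10 lay above 1 while that of enriched pairs included 1. Summed over the libraries, pairs of enriched promoters stood at 0.823 (0.815 to 0.832), against 0.999 for mixed and 1.01 for low pairs. The part of the precipitation in this value was not tested. Raising the limit to 8 times the mean lowered the value to 0.778 and lowering it to 2 times raised it to 0.892.

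Gene density around the promoters went with their contacts in every library. Windows were ranked by the number of coding TSS within 500 kb, and the quartiles held 1 to 9, 10 to 17, 18 to 28 and 29 to 73 TSS. Pairs between 2 promoters of the densest quartile were in excess in every library, at 1.23 in Control, 1.54 in TGFB1, 1.63 in miR-9-LOF and 1.59 in TGFB1+miR-9-LOF. Pairs between 2 promoters of the sparsest quartile were at 0.696, 0.895, 0.956 and 0.978. Pairs between the densest and the sparsest quartile were fewer still in every library, at 0.639, 0.721, 0.779 and 0.855. Summed over the libraries the densest pairs numbered 9887 against 6936 expected, a ratio of 1.43 (1.40 to 1.45), and the dense-with-sparse pairs 8268 against 11559, a ratio of 0.715 (0.700 to 0.731). The intermediate classes followed in order, with 0.860 within the second quartile and 0.991 within the third.

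The ratio of the densest to the sparsest class was 1.77 in Control, 1.72 in TGFB1, 1.70 in miR-9-LOF and 1.62 in TGFB1+miR-9-LOF. The interval of each of the 4 differences between libraries included 0 on the log2 scale. With the expected numbers also scaled within classes of coverage, a step chosen after seeing the data, the ratios were 1.86 (1.76 to 1.98), 1.74, 1.68 and 1.58 (1.44 to 1.72), so that the intervals of Control and TGFB1+miR-9-LOF no longer overlapped. The differences between these scaled ratios were not tested. Flank windows showed a gradient too, but a shallower one. The pooled ratio of densest to sparsest was 1.73 (1.67 to 1.8) for promoters and 1.41 (1.32 to 1.49) for flanks, a log2 difference of 0.30 (0.20 to 0.40), and the interval of this difference lay above 0 in each of the 4 libraries. In the pooled counts the flanks reached 1.49 in the densest class and 1.06 in the sparsest, against 1.43 and 0.822 for promoters. By library, dense promoter pairs were below dense flank pairs in Control, at 1.23 against 1.46, and level with them in TGFB1, at 1.54 against 1.54. They were above them in miR-9-LOF, at 1.63 against 1.51, and TGFB1+miR-9-LOF, at 1.59 against 1.45, with overlapping intervals in both. These differences were not tested.

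**Figure D2:**
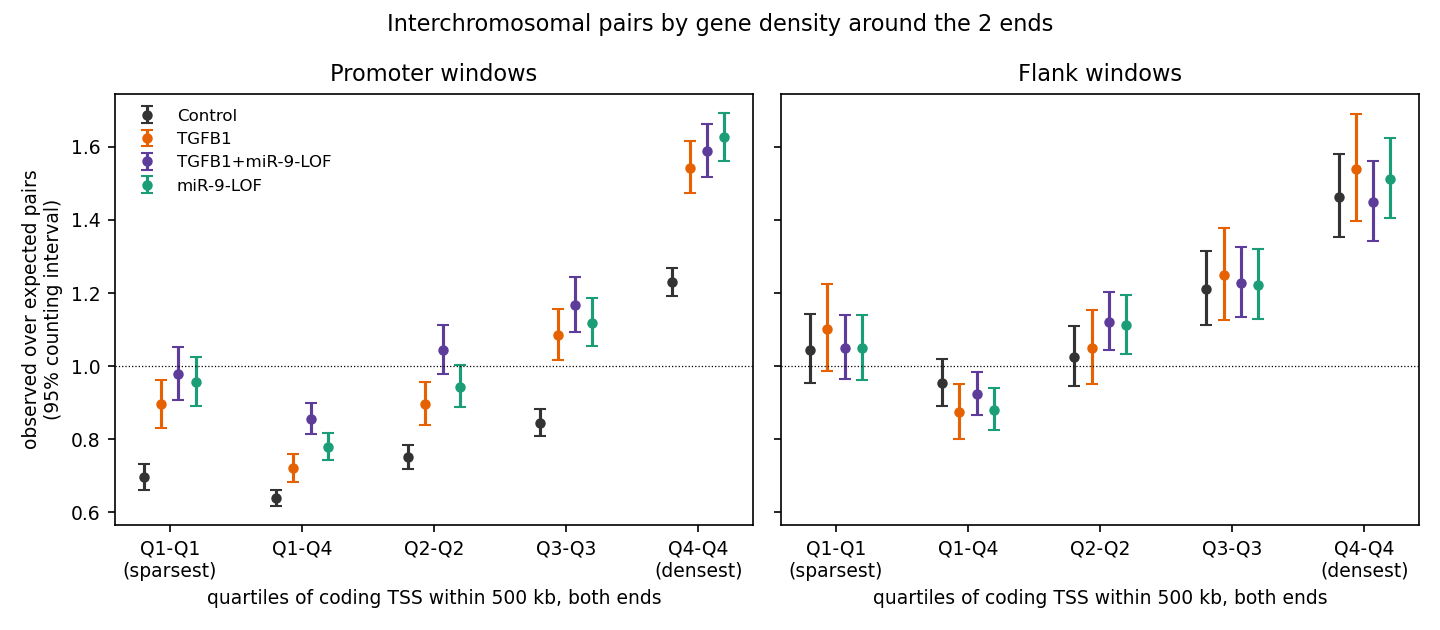
Observed over expected pairs (vertical axis, ratio) for 5 classes of gene density (coding TSS within 500 kb; Q1 sparsest, Q4 densest) in each library, with promoter windows in the left panel and flank windows in the right, and 95% counting intervals as bars. In both panels Q4 with Q4 is the highest and Q1 with Q4 the lowest of the 5 classes in every library, and the promoter panel reaches lower values at the sparse end.

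Density and H3K4me3 were then crossed, with the upper and lower pairs of quartiles taken as dense and sparse. Enriched promoters in dense surroundings met each other at 1.12 times the expected number, and met low promoters in dense surroundings at 1.27 times. Enriched promoters in sparse surroundings met each other at 0.692 and met enriched dense ones at 0.714. The deficit of enriched pairs was thus confined in the pooled counts to pairs with a sparse partner. In Control alone the dense enriched pairs were also below 1, at 0.929, whereas they stood at 1.26 in TGFB1, 1.31 in miR-9-LOF and 1.42 in TGFB1+miR-9-LOF.

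Position along the chromosome gave a smaller contrast. Mouse autosomes have the centromere at one end, and promoters in the first 13 Mb, of which 3 Mb is unassembled, met each other at 1.25 times the expected number (629 pairs, interval 1.15 to 1.35). Promoters in the last 10 Mb met each other at 1.21 times (1321 pairs, 1.14 to 1.27), and a centromere-side with a telomere-side promoter at 0.778 (1235 pairs, 0.736 to 0.823). In each of the 4 libraries the centromere-with-telomere class was the lowest of the 3. Telomere-side pairs were at 0.995 in Control and at 1.33 to 1.46 in the other 3 libraries. By GC content of the window, the pooled ratio was 1.12 for 2 promoters of the lowest quartile, 1.04 for 2 of the highest and 0.780 between lowest and highest. The middle quartiles did not follow this order, with 0.855 for 2 promoters of the second quartile and 0.888 for the second with the highest, and in Control the lowest pairs were at 0.985 and the highest at 0.866. The median number of TSS within 500 kb was 17 in the lowest and 20 in the highest GC quartile.

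The 171 pairs of autosomes were compared next, with the expected numbers scaled to the observed sum so that a ratio of 1 marks the average promoter pair. Of these, 16 had more promoter pairs than expected and 15 had fewer at an adjusted p of at most 0.05 (two-sided exact Poisson test, Benjamini-Hochberg over 171), which is 9.36% and 8.77% of those tested. Of the 16, 15 lay above 1 in all 4 libraries, and of the 15, 13 lay below. The calls were made on the sum of the same libraries, so this is no added support. Chromosomes 4, 7, 11, 17 and 19 supplied both partners of 8 of the 16. All of these but chromosome 4 have more than 11 coding TSS per Mb, from 11.1 on chromosome 17 to 13.9 on chromosome 7, and chromosome 4 has 8.48. This set was not fixed beforehand, and chromosomes 8, 10 and 15 had 2 higher calls each, as many as chromosome 4.

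Chromosomes 1 and 10 stood highest, with 862 promoter pairs against 671 expected, a ratio of 1.28 (1.20 to 1.37; exact Poisson test, adjusted p = 3.56e-10). Its ratio was 1.27 in Control, 1.44 in TGFB1, 1.23 in miR-9-LOF and 1.21 in TGFB1+miR-9-LOF. This pair is a special case, since all interchromosomal pairs of chromosomes 1 and 10, promoter or not, stood at 1.31, although the blocks taken as rearranged had been left out. The value for promoters was therefore no higher than that for the whole chromosomes. The next were 4 with 19 (585 pairs, ratio 1.25), 7 with 19 (884, 1.24), 17 with 19 (797, 1.22) and 11 with 17 (1602, 1.18), for which all pairs stood at 1.06, 1.03, 1.09 and 1.04. In these 4 the value for promoters lay above the value for all pairs, and this difference was not tested.

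Among the pairs called and below 1 in all 4 libraries, the lowest were 15 with 18 (141 promoter pairs, ratio 0.783), 8 with 13 (238, 0.801), 17 with 18 (184, 0.810), 2 with 18 (207, 0.825) and 1 with 9 (484, 0.828). Chromosome 18, with 5.66 coding TSS per Mb, took part in 3 of these 5 and had the lowest ratio of any autosome over all its pairs, 0.886, and chromosome 11 had the highest, 1.07. Chromosome 18 lay between 0.877 and 0.898 and chromosome 11 between 1.05 and 1.08 in the 4 libraries. Chromosome 12, the sparsest with 5.35 coding TSS per Mb, stood at 0.926 with 0 pairs called lower. Across the 171 pairs, which share chromosomes and the same 4 libraries, the ratio followed the product of coding TSS per Mb with a Pearson r of 0.57 and a Spearman coefficient of 0.54. The ratios of 2 libraries correlated with r of 0.25 to 0.39 over the same pairs.

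The expected numbers were also scaled within the 4 by 4 density classes, a step chosen after seeing the data. After it 2 chromosome pairs were called higher, 1 with 10 at 1.36 (exact test, adjusted p = 1.18e-15) and 4 with 19 at 1.22 (exact test, adjusted p = 0.00027). None was called lower, while 14 were lower and 12 higher at an unadjusted p of at most 0.05. The ratio of 7 with 19 moved from 1.24 to 1.11, of 11 with 17 from 1.18 to 1.07 and of 7 with 17 from 1.13 to 1.00. The count of lower calls also rested on single libraries. It was 6 without Control, 7 without TGFB1, 7 without miR-9-LOF and 13 without TGFB1+miR-9-LOF, whereas the count of higher calls stayed between 13 and 15.

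**Figure D3:**
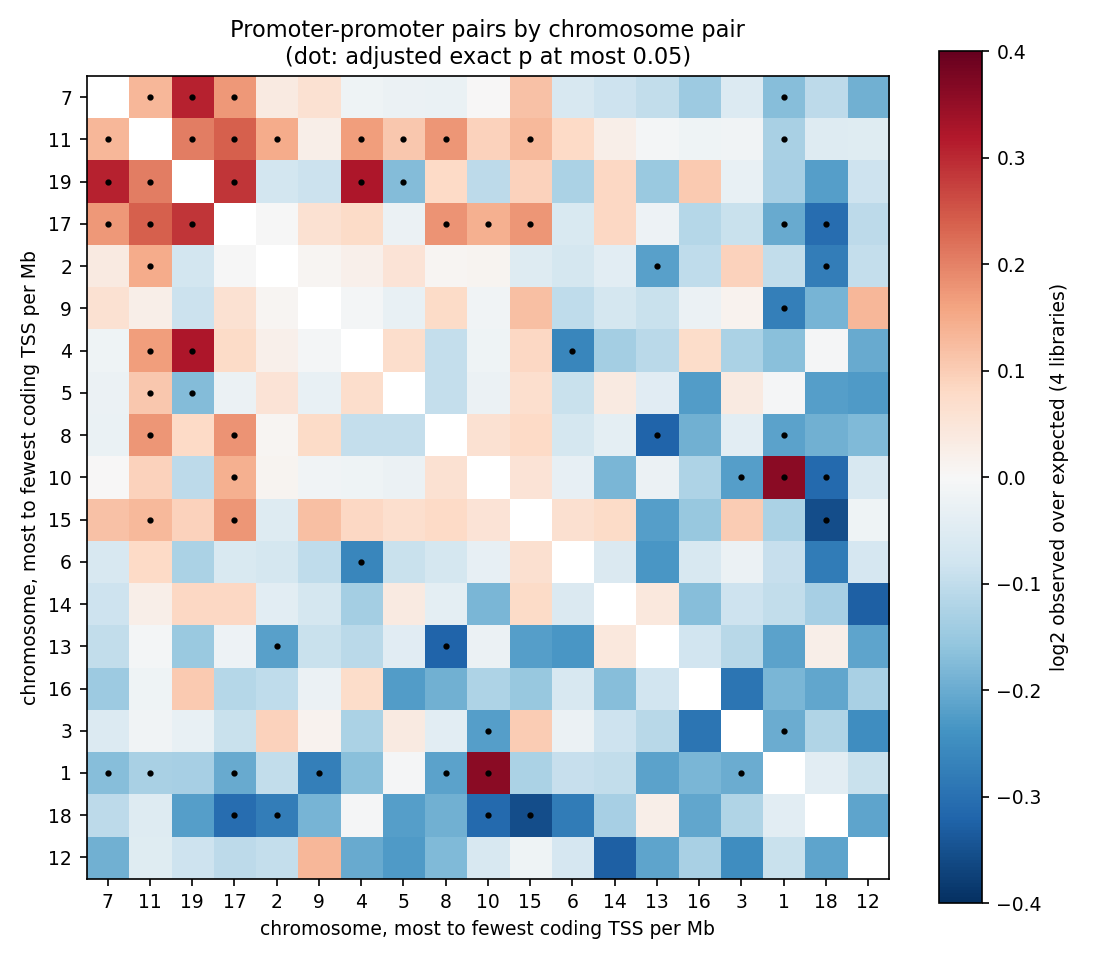
Log2 of observed over expected promoter pairs (colour) for each pair of the 19 autosomes, ordered on both axes by coding TSS per Mb, with dots on pairs past the adjusted p of 0.05. Most dots of excess join 2 gene-dense chromosomes, most dots of deficit join chromosome 1, 3, 13 or 18 with a denser one, 1 with 3 is the only called pair within these 4, and the pair of chromosomes 1 and 10 (ratio 1.28) stands apart from its surroundings.

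Single promoters were described by the share of their interchromosomal partners that were themselves promoters, against the share expected for a promoter on that chromosome. This share was 10.04% over all windows. Among 9450 windows with at least 50 interchromosomal ends, 23 had a higher share, or 0.243% of those tested, and 5 a lower one, or 0.0529% (two-sided exact binomial test, Benjamini-Hochberg over 9450). The higher ones lay in gene-dense surroundings, with a median of 50 coding TSS within 500 kb against 17 over all tested, and 78.3% of them in the densest quartile. They were on chromosomes 10, 17 and 19 with 5 each, 11 with 4, 15 with 2, and 9 and 13 with 1 each. Of the 5 lower ones, 80% were in the sparsest quartile. Their median H3K4me3 level was 8.57 times the mean, against 4.60 over all tested windows. A low share can be called only in a window with many ends, and these had a median of 190 against 122. The H3K4me3 level was therefore not separated from the number of ends.

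The highest share belonged to Gm10260, a gene on chromosome 13 whose sequence is printed above, with 34 promoter partners among 76 ends (44.7%, ratio 4.48; exact test, adjusted p = 1.15e-10). Its partners numbered 14 in Control, 8 in TGFB1, 9 in miR-9-LOF and 3 in TGFB1+miR-9-LOF. Its H3K4me3 level was 0.91 times the mean, so it did not meet the enriched class. This value is uncertain, since its reads can come from a near-identical copy. Of the 59 ends in or within 500 bases of the shared stretch, 34 had their partner within 100 kb of B3galt4, the gene beside the Rps18 copy, 10 elsewhere on chromosome 17 and 15 on other chromosomes. Of the other 17 ends in the window, 0 had a partner on chromosome 17.

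The next 4 windows among those above expectation in all 4 libraries had 23 to 64 coding TSS within 500 kb. Slit1, which encodes a secreted axon guidance ligand, had 15 promoter partners of 52 ends (ratio 3.05), Rac3, a small GTPase gene, 20 of 76 (2.74), Cd5, which encodes a surface glycoprotein of T cells, 19 of 72 (2.66), and Phf23, a PHD finger protein gene, 24.3% of its ends (2.46). The adjusted p from the exact binomial test was 0.0428, 0.0281, 0.0404 and 0.0258. By library, Slit1 had 5, 1, 5 and 4 partners, Rac3 7, 1, 8 and 4, Cd5 9, 2, 4 and 4, and Phf23 10, 3, 6 and 6. They were selected for lying above the expected number in all 4 libraries, so this is no added support, and the margin was a few pairs.

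The other 18 with a higher share included a group on chromosome 10, Tmem259 (64 of 366 ends, ratio 1.73), Mbd3 of the NuRD complex (74 of 463, 1.58), Abhd17a (41 of 197, 2.03), Btbd2 (34 of 166, 2.04) and Mknk2, an eIF4E kinase gene (30 of 133, 2.21). On chromosome 17 they were Msln, which encodes mesothelin (1.85), Wdr90 (2.33), B3galt4, next to the Rps18 copy (2.42), Tap1/Psmb9, which carries a peptide transporter and an immunoproteasome subunit (36 of 182, 2.02), and Ly6g6c/Mpig6b (2.42). Of the 30 promoter partners of B3galt4, 5 lay in the Gm10260 window. On chromosome 19 Men1, the menin gene, had 48 of 231 (2.09), Ccdc85b/Fibp 78 (1.57) and Ctsw 25 of 108 (2.38). The last 5 were Stra6 (2.47), Abhd15/Trp53i13/Gm10392 (1.86), Slc25a39 (1.91), Aqp5 (2.40) and Igfbp6 (3.04). The windows of chromosome 10 lie in one gene-dense region with 53 to 60 coding TSS within 500 kb, and their counts share that surrounding.

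At the low end, Mrpl19, a gene for a mitochondrial ribosomal protein, had 0 promoter partners among 106 ends where 10.9 were expected, which allows a share of up to 2.83%. Ncoa7, a nuclear receptor coactivator gene, had 1 of 159 (expected 16.2), and Cep192, which encodes a centrosomal protein, 5 of 190 (expected 19.6). Gab1, an adaptor of receptor tyrosine kinases, had 16 of 376 (expected 38.2) and Llph 15 of 343 (expected 35.4). The adjusted p of these 5 ran from 0.00407 for Ncoa7 to 0.0404 for Cep192 (exact binomial test). In Gab1 the partners numbered 8, 1, 4 and 3 by library, against 18.0, 6.38, 8.15 and 5.71 expected. All 5 promoters were enriched for H3K4me3, from 5.29 times the mean at Mrpl19 to 17.5 times at Gab1, with 4 to 11 coding TSS within 500 kb. This enrichment was not separated from the many ends that a low call requires.

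These calls were few and depended on depth and density. Without Control, 2 windows were called higher and 0 lower. Without TGFB1 they were 11 and 1, without TGFB1+miR-9-LOF 12 and 3, and without miR-9-LOF 7 and 4. With the expected share scaled within density classes, chosen after seeing the data, Gm10260 was the only one called higher (ratio 5.36) and Foxp4, a forkhead factor gene, the only one called lower (ratio 0.501; exact test, adjusted p = 0.0136). Scaled within classes of coverage, Slit1, Cd5, Llph and Cep192 no longer passed, with adjusted p of 0.0572 to 0.0768 (exact test).

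**Figure D4:**
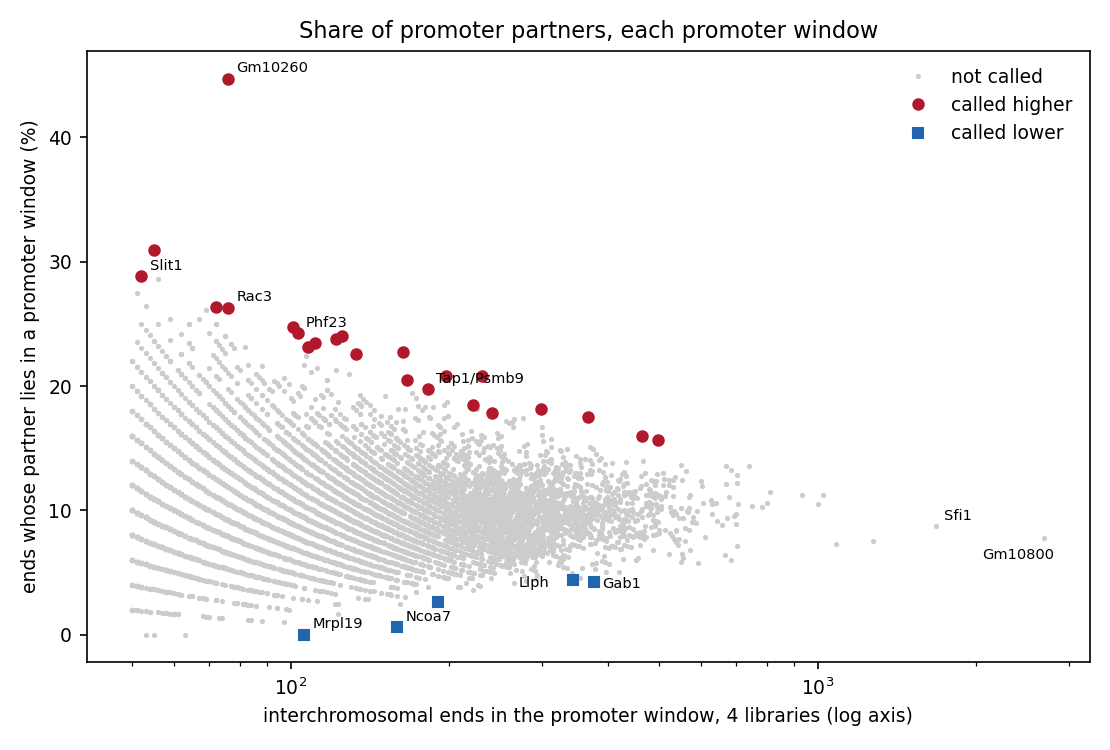
Share of interchromosomal partners that are promoters (vertical axis, percent) against the number of interchromosomal ends (horizontal axis, log scale) for each tested promoter window, with windows past the adjusted p of 0.05 marked as higher or lower. The scatter narrows around 10.04% as ends increase, Gm10260 stands alone at 44.7%, and the other called windows lie at the edge of the scatter.

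The windows with the most member pairs had many ends, and their shares did not stand out. Gm10800 on chromosome 2, of whose window 61.8% is repeat-masked, had 209 promoter partners of 2689 ends (ratio 0.804). Sfi1, a gene for a centrin-binding protein, had 146 of 1675 (0.911). The merged window of Ring1, H2-Ke6, Slc39a7 and Rxrb, which holds a Polycomb ring finger gene and a retinoid X receptor gene, had 115 of 1022 (1.13). The windows of B4gat1/AC124502.3/Brms1 (ratio 1.12) and of Vps51/Tmem262/Gm28374/Zfpl1/Cdca5 (1.05) had 105 each. None of the 5 passed the test.

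The genes the study itself names were looked up in the same way. Ncl, the nucleolin gene, had 37 promoter partners of 329 ends (ratio 1.08), with 18, 8, 7 and 4 by library against 15.1, 6.97, 7.06 and 5.15 expected. Ep300, a histone acetyltransferase gene, had 36 of 349 (1.00), Lzts2 14 of 123 (1.17) and Zdhhc5, a palmitoyltransferase gene, 11 of 84 (1.34). None of these 4 passed the test. Hdac7, a histone deacetylase gene, had 5 of 28 ends and Prap1 3 of 35, which left both under the minimum of 50 ends.

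Gene families and pathways were then compared with all promoters, for which the ratio is 1 by construction, the median over tested windows is 0.985 and the calls are 23 higher and 5 lower of 9450. Among housekeeping families, the cytosolic ribosomal protein genes stood at 1.05 (1598 promoter partners of 15202 ends, 79 windows), with 0 of 70 tested windows called. Rpl19 had 80 partners of 782 ends (1.05), Rpl3l 55 of 379 (1.46) and Rps18 50 of 334 (1.49). The last window adjoins the one with the stretch printed above and shares 137 bases with the Gm10260 window at 86.9% identity. Of its 50 partners, 12 lay in the Gm10260 window. The mitochondrial ribosomal protein genes stood at 1.01, with Mrpl19 the 1 of 66 called and lower, Mrpl49 at 72 of 602 (1.20) and Mrps34 at 61 of 508 (1.20). The proteasome genes stood at 1.03, with Psmb9 the 1 of 32 called and higher Psmb3 at 93 of 810 (1.17) and Psmc5 at 39 of 413 (0.956). The SR splicing factors were at 0.991 with 0 of 10 called, Srsf2 at 55 of 490 (1.13) and Srsf9 at 38 of 324 (1.15).

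Clustered and developmental families differed little more. Replication-dependent histone genes, which form dense clusters, had the highest ratio of the gene families at 1.22 (266 of 2144 ends), from 1.00 in TGFB1 to 1.3 in Control, with 0 of 18 called. The window shared by Hist1h2af, Hist1h3g and Hist1h4h had 25 of 231 ends and that of Hist4h4 19 of 173, both at 1.05. Hox genes were at 1.07, with Hoxa4 at 26 of 235 (1.07) and Hoxb7 at 25 of 267 (0.947). Zinc finger genes were at 0.954 (3387 of 35351 ends, 0 of 239 called), with Zfp36 at 45 of 380 (1.18) and Zfp207 at 42 of 334 (1.29). Collagen genes were at 1.08 with Col5a1 at 30 of 316 (0.949) and Col5a3 at 20 of 118 (1.72). AP-1 genes, whose products are early-response transcription factors, were at 1.14 with 0 of 11 called. Mafg had 52 of 405 ends (1.31) and Junb 40 of 329 (1.19), while Jun itself had 7 of 171 (0.399; exact test, adjusted p = 0.213).

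No tested window of the TGFB pathway was called. A list this short would rarely hold a call, since 0.243% of all tested windows were called higher and 0.0529% lower. Ligands, receptors, Smads and their regulators stood at 0.868 over 26 windows, with 419 promoter partners of 4728 ends against 483 expected. Of 22 tested, 0 were called, and the median was 11.5 coding TSS within 500 kb against 17 over all windows. The receptor gene Bmpr2 had 34 of 348 (0.934). The ligand gene Tgfb1 had 26 of 248 (1.05) and Tgfb2 13 of 230 (0.548), the receptor gene Tgfbr2 21 of 314 (0.651), and Smad3, a signal transducer, 27 of 270 (0.975). The inhibitory Smad6 had 37 of 380 (0.958) and Smad7 22 of 273 (0.782). The target genes of TGFB1 stood at 0.920, at 0.806 in Control, 1.01 in TGFB1, 0.927 in miR-9-LOF and 1.14 in TGFB1+miR-9-LOF, with 0 of 14 called. Id1, which encodes an inhibitor of basic helix-loop-helix factors, had 30 of 370 (0.799) and Pmepa1 24 of 338 (0.698). Ccn2, which encodes a matricellular protein, had 18 of 250 (0.695). Contractile genes were at 1.11 with 0 of 13 called, with Vcl at 43 of 281 (1.5), Cnn2 at 40 of 357 (1.09), Myh9 at 37 of 331 (1.10), Tpm2 at 35 of 207 (1.66) and Acta2 at 12 of 163 (0.737).

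Olfactory receptor genes, which fibroblasts do not use, were the lowest family. They had 1408 promoter partners of 17910 ends (7.86%, ratio 0.810), and 0 of their 1072 windows were enriched for H3K4me3. The ratio was 0.971 in Control, 0.842 in TGFB1, 0.690 in miR-9-LOF and 0.746 in TGFB1+miR-9-LOF. Each library's value is relative to all of its promoters, whose own level differed. The 31 windows with at least 50 ends had a median of 1.12, on the other side of 1, and 0 of them were called. Those with the most promoter partners were Olfr70, with 13 of 58 (2.28), and Olfr543, with 12 of 55 (2.25). Pairs of 2 olfactory receptor promoters went the other way. There were 19 such pairs between chromosomes, 4 in Control, 2 in TGFB1, 5 in miR-9-LOF and 8 in TGFB1+miR-9-LOF, against 9.69 expected, a ratio of 1.96 (1.18 to 3.06). These genes are similar in sequence, and the part of misplaced reads in this number was not tested.

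The finest comparison asked whether any 2 promoters on different chromosomes met repeatedly. Of 167267323 possible pairs of windows, 82565 were observed and 99.8% of these were seen once. There were 168 seen 2 times and 25 seen at least 3 times. The count passed the adjusted p of 0.05 with at least 3 pairs for 19 (one-sided exact Poisson test, Benjamini-Hochberg over all pairs of windows), or 1.14e-05% of those tested, and 18 of the 19 were seen in at least 2 libraries. Since the calls were made on the sum of the libraries, being seen in 2 of them is no added support. Without Control 12 were called and without TGFB1 11, and 14 without each of the other libraries.

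Gm10260 with the windows around the Rps18 copy made up 4 of the 19. With Vps52/Rps18 it had 12 pairs, 6 in Control, 4 in TGFB1, 1 in miR-9-LOF and 1 in TGFB1+miR-9-LOF, against 0.00176 expected. It had 5 pairs with B3galt4, 4 with Rgl2 and 4 with Pfdn6/Wdr46. On the Gm10260 side all of these ends lay 167 to 227 bases downstream of the TSS. On chromosome 17 they spanned 1837 bases at Vps52/Rps18, 3732 at B3galt4 and 1553 at Pfdn6/Wdr46, but 167 at Rgl2. Another pair of alike sequences was Gm10800 with Gm21738, with 11 pairs, whose windows share a stretch of 788 bases at 90.6% identity and whose 11 pairs all joined the same 2 MboI fragments. For both, contacts and misplaced reads cannot be told apart. Gm10260 also lies inside the left-out block of chromosome 13, with its partners on chromosome 17 beyond the 32 Mb end of the block there, so an effect of a rearrangement cannot be told apart from these.

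Most of the others joined windows with little or no shared sequence and had narrow ends on one side. Exceptions were Bmf with Tubb5/Mdc1, whose narrower side spanned 1367 bases, and Gm10800 with Sfi1, with 558 bases. Prkab1, which encodes a subunit of AMP-activated kinase, and Mras had 7 pairs, 4 in Control, 2 in TGFB1, 0 in miR-9-LOF and 1 in TGFB1+miR-9-LOF, against 0.00108 expected (exact test, adjusted p = 2.85e-17). On the Prkab1 side the ends ran from −940 to 1377 bases relative to the TSS, but on the Mras side 5 of 7 fell on the base in capitals above and the other 2 on the base beside it. Gata5 with Tap1/Psmb9 had 4 pairs, 1 in each library, all on 1 base of the Gata5 window. Mtpn with Mical2, which encodes an actin-oxidising enzyme, also had 4, all on 1 base of the Mtpn window. Adal/Lcmt2 with the glutamate receptor gene Grik2, Zdhhc2 with Fer/A930002H24Rik and Jade2 with Cdkn3 had 4 pairs each, likewise with all ends of one side on 1 base.

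Of the 19, 9 had one side on 1 base, 11 within 2 bases and 16 within 60 bases. Of the 168 pairs of windows seen 2 times, 43 or 25.6% had a side within 2 bases, with a median narrower span of 128 bases. With each base counted once, a step chosen after seeing the data, 6 of the 19 stayed past the same p, the 4 of Gm10260, Gm10800 with Gm21738, and Gm10842 with Prdx3. All 6 join windows that share sequence, 208 bases at 77.9% identity in the last. With each pair of MboI fragments counted once, 13 were called. At Mras, 9 of the 14 ends on the bases of its repeated pairs had a partner within 100 kb of the Prkab1 window, against 0 of the other 53 ends in the Mras window. At Gata5 the numbers were 11 of 20 against 0 of 32, at Mtpn 22 of 37 against 0 of 221, and at Fer 5 of 6 against 0 of 114. At other windows the larger part of these ends had partners elsewhere, with 7 of 17 near the other window at Grik2, 6 of 17 at Slc22a12, 6 of 13 at Jade2 and 3 of 10 at Moap1/Tmem251. The repeated pairs that defined the bases are among these ends, 7 of the 9 at Mras and 4 each of the 11, 22 and 5 at the others, so the contrast is a description and not a test. The remaining ends counted there had partners near, but outside, the promoter window of the other gene. What these bases mark was not tested, and for such pairs contacts, junctions in the genome of MLg cells and misplaced reads cannot be told apart.

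**Figure D5:**
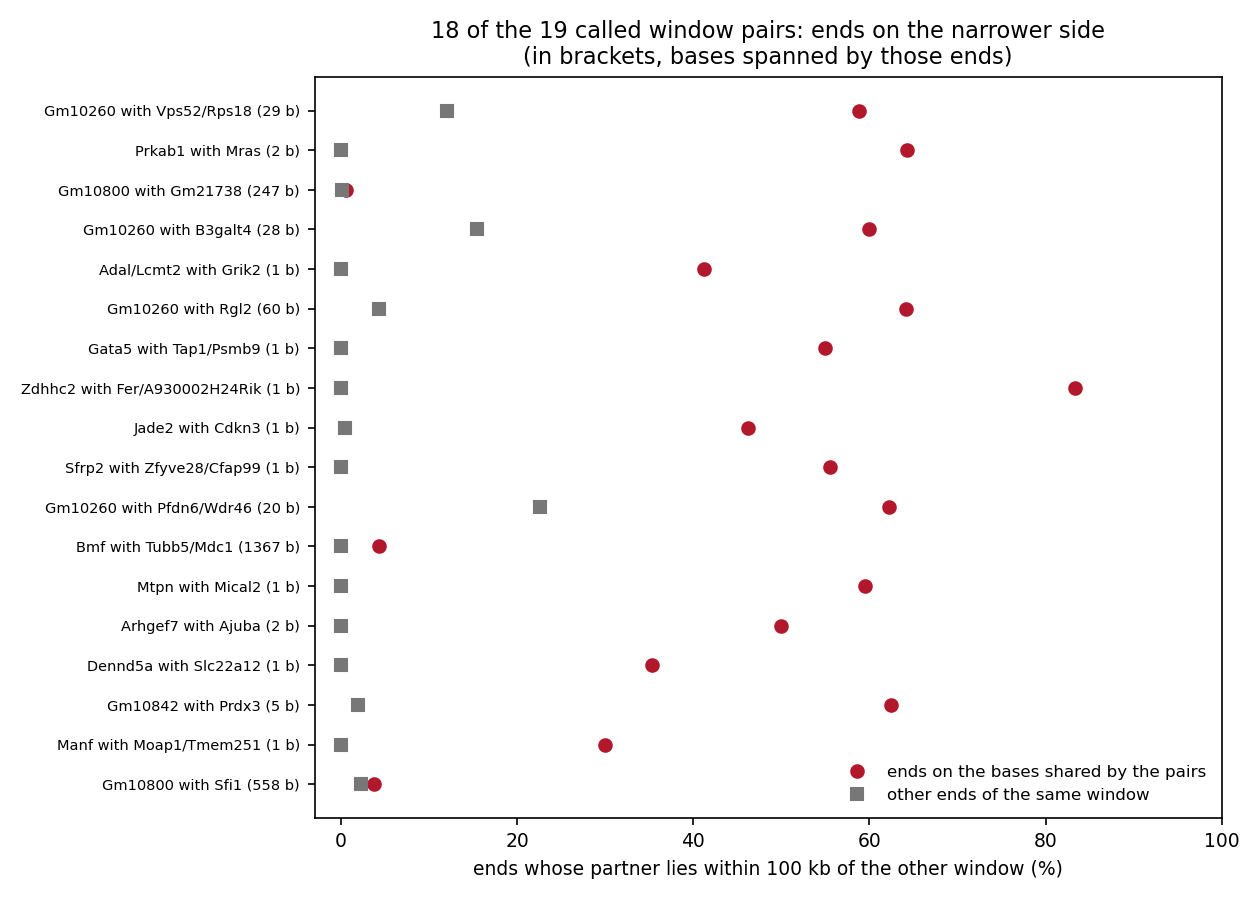
For 18 of the 19 called pairs of promoter windows, the percentage of ends with a partner within 100 kb of the other window, for ends on the bases shared by the repeated pairs and for all other ends of the same window. Ends on the shared bases reach 22 of 37 at Mtpn and 9 of 14 at Mras, and other ends of those windows are at 0.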

How the data were processed

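Each of the 4 conditions had 1 H3K4me3 HiChIP-seq library. The authors ran HiC-Pro with its default configuration (version not given in the sources used here) against mm10, which discarded duplicates and tied each end to its MboI fragment, and they allowed valid pairs over any distance. The deposited files list 1 valid pair per line, with a mapping quality score from the aligner for each end. Depth was 10864558 to 15568047 valid pairs per library, and it limits the precision of single windows most.

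Interchromosomal pairs of autosomes whose ends both reached a mapping quality of 30 were counted in windows of 2 kb on either side of each coding gene's TSS (GENCODE annotation of GRCm38), merged where they overlapped. Expected numbers were products of window coverages by interchromosomal ends within chromosome totals from a quasi-independence fit. Intervals are 95% exact Poisson intervals, and the tests are exact Poisson and binomial tests with Benjamini-Hochberg adjustment, made in Python 3.11.15 with SciPy 1.17.1. Shared stretches were found with blastn 2.17.0. The scripts were tested on simulated data. They called 74 of 200 promoter windows with a planted share 1.8 times as high, so a window that was not called may still differ. The planted windows were drawn from those with many ends, so this rate does not carry over to all tested windows. They called 10 of 10 chromosome pairs planted at 1.25 times and 19 of 19 planted pairs of windows. The latter had 1 pair planted in each library, so this says little about fewer pairs.

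Named were the genes the study names, the 5 highest and 5 lowest called promoter windows and chromosome pairs on the same side of 1 in all 4 libraries, the 8 called pairs of windows with the smallest p that were seen in at least 2 libraries, at least 2 of the 4 members of each gene family or pathway list with the most promoter pairs, and the 5 windows with most promoter pairs. The other called windows, some pathway members, Cwc22 and Gm10801 were named after their values were seen. The members and lists were chosen with earlier results of these data known. The alternatives varied the mapping quality, the window, the TSS set, the regions left out, fragment duplicates, the coverage, the scaling and the libraries. Scaling by coverage or density class and counting each base once were added after seeing the data.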

Additional observations from a re-analysis of the deposited data

Results flagged for a closer look

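The difference in observed over expected promoter pairs between a library with and one without TGFB1 was not the same in the 2 libraries without and the 2 with the miR-9 antagomiR. TGFB1 exceeded Control by 0.30 on the log2 scale, and TGFB1+miR-9-LOF exceeded miR-9-LOF by 0.061, so that the first difference was larger by 0.24 (95% interval 0.20 to 0.28). The interval covers counting error in the 4 libraries and no replicate, so it compares libraries and not treatments. The share of interchromosomal ends in promoter windows moved with it, from 14.1% to 10.7% without the antagomiR and from 9.0% to 8.05% with it, and its part in the difference was not tested.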

How the results depend on the processing

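No paired analysis was possible because each condition has 1 library and the labels carry no replicate number. Of the summary values under an alternative, 124 kept direction and call, or stayed within 1.5 times the reported count or inside the interval of the reported ratio, 5 reversed and 62 did not. Values with a call could still change in size among the 124, such as TGFB1+miR-9-LOF over TGFB1, 0.14 in the report and 0.038 to 0.33 under the alternatives. The 20 named chromosome pairs and promoters gave 331 values, of which 0 reversed and 96 no longer passed the threshold. They were selected for lying on the same side of 1 in every library, so leaving out a library could not reverse them.

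The ratios by library are given in the order of the report, with TGFB1+miR-9-LOF last. With windows of 1 kb they were 0.655, 0.848, 0.920 and 0.996, the gene density ratio was 1.84, chromosome pairs were called 8 higher and 5 lower, and promoter windows 2 higher and 0 lower. With 5 kb they were 0.980, 1.10, 1.14 and 1.13, the log2 difference of TGFB1+miR-9-LOF over miR-9-LOF was −0.012, the density ratio 1.55, and the calls 43 lower chromosome pairs, 193 higher and 77 lower promoter windows and 60 pairs of windows. With the TSS of every coding transcript they were 0.870, 1.03, 1.09 and 1.10, that log2 difference was 0.012, the density ratio 1.59, and 69 promoter windows were higher and 21 lower. With coverage from all ends TGFB1 was at 0.931, TGFB1+miR-9-LOF at 1.17 and miR-9-LOF at 1.14, the density ratio was 2.22 and 11 promoter windows were lower. As a Mantel-Haenszel odds ratio, Control was at 0.729, TGFB1 at 0.957 and miR-9-LOF at 1.02.

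At a mapping quality of at least 40, Control was at 0.782, TGFB1 at 0.960 and 11 pairs of windows were called, and at any mapping quality 36 promoter windows were higher and 11 lower. Without the 1% of windows with most ends 5 were higher and 1 lower, and with at least 100 ends 10 were lower. Unscaled expected numbers gave 5 higher and 93 lower chromosome pairs and 14 higher and 31 lower promoter windows. Pairs of enriched promoters stood at 0.892 with 2 times the mean and 0.778 with 8 times.

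Of the steps chosen after seeing the data, scaling by coverage class left 3 lower promoter windows, scaling by density class left 2 higher and 0 lower chromosome pairs and 1 higher and 1 lower promoter window, and counting each base once left 6 pairs of windows. Leaving out each library in turn gave 13 to 15 higher and 6 to 13 lower chromosome pairs, 2 to 12 higher and 0 to 4 lower promoter windows, and 11 to 14 pairs of windows. Apart from the smaller number of reads in these, the cause of the changes was not tested.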

Other observations

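The regions left out held values that enter no comparison above. Between the left-out blocks of chromosomes 13 and 17 there were 2449 pairs, of which 35 joined promoters, 22 in Control, 4 in TGFB1, 2 in miR-9-LOF and 7 in TGFB1+miR-9-LOF. Between those of chromosomes 1 and 10 there were 1969 pairs, of which 4 joined promoters. Pairs with an end at 39 to 40 Mb of chromosome 17 numbered 11954, of which 7 joined promoters.

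Inside the gene lists, pairs between members on different chromosomes were rare. Histone genes had 2, both in miR-9-LOF, against 0.0892 expected over the 4 libraries. Zinc finger genes had 34 against 38.9 expected, cytosolic ribosomal protein genes 9 against 7.60, and TGFB signalling genes 3 against 0.749 (ratio interval 0.826 to 11.7). Collagen, contractile, SR splicing factor and TGFB1 target genes had 0, against 0.183 to 0.301 expected.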
